A study of Mus musculus with 15 samples.

Results

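The transcripts described here are 33 genes that microglia and macrophages are known to express, found in the deposited counts table by their symbols, of 24498 genes in all. They were followed across 15 RNA-seq libraries of mouse hippocampal neurons grown in culture, from a study of how acetate, a product of alcohol breakdown, acts in brain cells. All cultures had differentiated for 7 days and were then treated for 24 h. There were 4 groups: 5 mM acetate or vehicle (neurobasal medium), each combined with 20 µM of an inhibitor of ACSS2 or with its diluted solvent, DMSO. The groups are called DMSO vehicle (n = 4), DMSO acetate (n = 4), inhibitor vehicle (n = 3) and inhibitor acetate (n = 4), and a library is named by its group and replicate number. Plated cells came from a neuron core facility, and the labels give no strain, age or sex and do not name the inhibitor. They do not say that replicates came from separate cultures, and a p-value here measures only how far these libraries spread, which may be technical.

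Microglia are the resident macrophages of the brain. They depend on signalling through the receptor Csf1r, are made under the control of the transcription factors PU.1 (Spi1) and Irf8, and clear debris and synapses by phagocytosis, in part by way of complement. Border macrophages live in the meninges and around vessels and share most of these transcripts with microglia, so the genes do not tell the cells apart except through a few markers. ACSS2 makes acetyl coenzyme A from acetate. Primary neuron cultures are labelled as neurons but can hold other brain cells.

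PU.1 binds DNA sites built around the letters GAGGAA, and the promoters of a few members are shown because the members moved together across the libraries. The sequences are the 250 bases before the RefSeq transcription start (build GRCm38.p6), written 5′ to 3′ on the gene's strand, with each GAGGAA or its reverse complement TTCCTC in capitals. C1qb, Itgam, Trem2, Ctss and Cd53 each hold at least 1 such match, and C3, the member with the largest fall, holds 0.
C1qb, chr4:136886201-136886450, minus strand: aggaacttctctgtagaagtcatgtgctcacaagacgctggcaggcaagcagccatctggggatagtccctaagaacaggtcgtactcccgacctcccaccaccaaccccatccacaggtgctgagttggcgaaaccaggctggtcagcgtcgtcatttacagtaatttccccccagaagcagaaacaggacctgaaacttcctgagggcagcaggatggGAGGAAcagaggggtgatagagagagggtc
Itgam, chr7:128062390-128062639, plus strand: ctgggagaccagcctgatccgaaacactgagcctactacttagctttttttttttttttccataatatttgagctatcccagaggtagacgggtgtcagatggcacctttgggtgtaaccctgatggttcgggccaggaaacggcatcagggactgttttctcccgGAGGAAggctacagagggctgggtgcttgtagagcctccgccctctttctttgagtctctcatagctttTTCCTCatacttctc
Trem2, chr17:48346151-48346400, plus strand: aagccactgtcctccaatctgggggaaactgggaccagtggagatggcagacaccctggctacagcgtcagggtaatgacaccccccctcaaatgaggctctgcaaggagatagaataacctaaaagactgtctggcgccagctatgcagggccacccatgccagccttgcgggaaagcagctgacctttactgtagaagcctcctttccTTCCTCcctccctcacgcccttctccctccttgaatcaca
Ctss, chr3:95526536-95526785, plus strand: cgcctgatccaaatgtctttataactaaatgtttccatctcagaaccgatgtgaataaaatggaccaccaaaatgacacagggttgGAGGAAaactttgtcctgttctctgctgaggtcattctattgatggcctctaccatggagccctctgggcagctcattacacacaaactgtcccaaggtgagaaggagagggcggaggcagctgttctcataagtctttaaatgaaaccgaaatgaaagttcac
Cd53, chr3:106790150-106790399, minus strand: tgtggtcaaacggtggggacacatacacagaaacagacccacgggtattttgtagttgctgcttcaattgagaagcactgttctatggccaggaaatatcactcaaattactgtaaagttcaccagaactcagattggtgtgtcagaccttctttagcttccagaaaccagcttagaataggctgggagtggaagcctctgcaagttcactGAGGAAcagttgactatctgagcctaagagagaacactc
C3, chr17:57228137-57228386, minus strand: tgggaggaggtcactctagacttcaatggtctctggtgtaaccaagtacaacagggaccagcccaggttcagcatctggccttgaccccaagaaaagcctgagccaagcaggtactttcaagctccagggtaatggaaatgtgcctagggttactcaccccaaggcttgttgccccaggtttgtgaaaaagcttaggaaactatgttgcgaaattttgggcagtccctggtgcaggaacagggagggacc

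Of the 33 members, 26 had a promoter in the table, through 29 promoters, and C1qa, Tyrobp, Tmem119, Gpr34, Selplg, Cd14 and Spi1 had none. The letters GAGGAA or TTCCTC lay in 16 of the 29 windows (55.2%) and in 7639 of 32851 windows of the same length over all genes (23.3%). The matches belonged to 15 members: Ptprc, Fcgr3, Mrc1, P2ry13, Fcrls, Ctss, Cd53, Csf3r, Laptm5, C1qb, C1qc, Itgam, Cd68, Aif1 and Trem2. In C1qb the match began 30 bases before the start, in Trem2 40 and in Cd53 39. A more general letter string of the same protein family, GGAAGT or ACTTCC, lay in 11 of the 29 windows (37.9%) against 19.7% of all. The TATA letters TATAAA or TTTATA lay in 20.7% against 12.4%, and the GC box letters GGGCGG or CCGCCC in 31% against 32.7%. The GAGGAA and GGAAGT strings can overlap, a match is not a measured binding site, and no binding was measured in these cultures.

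Before the comparisons, 2 libraries have to be named. Summed over the 33 members, DMSO vehicle 1 had 230.9 counts for every 1000000 gene counts, while DMSO vehicle 2, 3 and 4 had 1378.3, 1258.8 and 1308.4. Inhibitor vehicle 2 had 33.7, against 997.6 and 1190.3 in inhibitor vehicle 1 and 3. DMSO vehicle 1 therefore lay below the rest of its group, and inhibitor vehicle 2 lay at the level of the acetate libraries. These sums had exact binomial (Clopper-Pearson) 95% intervals of 225.0 to 236.8 for DMSO vehicle 1 and 31.4 to 36.2 for inhibitor vehicle 2, which cover counting error only.

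The acetate libraries were low throughout. DMSO acetate 1 to 4 had 58.5, 72.1, 48.8 and 49.3 counts of the members per 1000000 gene counts. Inhibitor acetate 1 to 4 had 41.8, 105.5, 38.0 and 68.4. No acetate library came near the 5 vehicle libraries other than DMSO vehicle 1 and inhibitor vehicle 2.

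**Figure D1:**
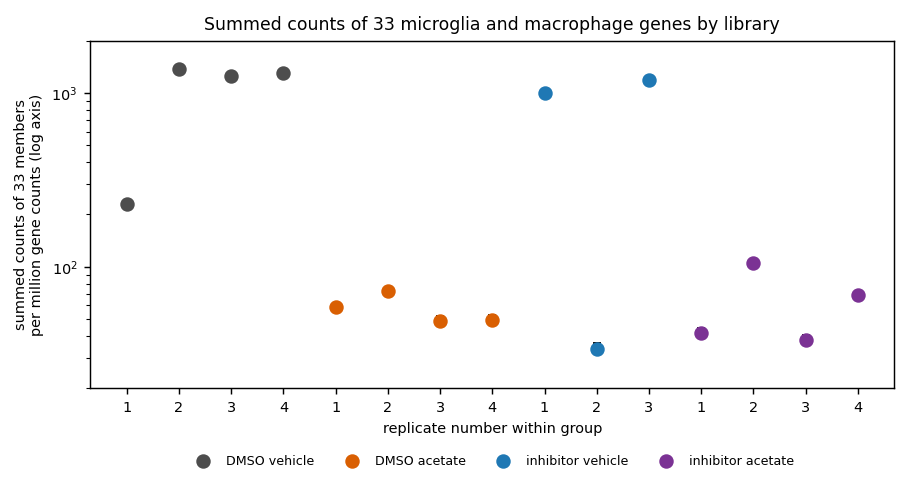
Summed counts of the 33 members per 1000000 gene counts (y axis, log scale) for each library (x axis, replicate number within its group), coloured by group, with exact binomial 95% intervals, mostly smaller than the points. DMSO vehicle 1 (230.9) and inhibitor vehicle 2 (33.7) lie below the other vehicle libraries (997.6 to 1378.3), and the acetate libraries lie between 38.0 and 105.5.

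Summed levels of genes of other cell types also differed in the same 2 libraries. Summed CPM of 10 meningeal and fibroblast genes was 79.5 in DMSO vehicle 1, where the highest library of that group had 538, and 29.0 in inhibitor vehicle 2, where the highest had 467. Summed CPM of 10 astrocyte genes was 4550 and 4300 in these libraries, the lowest of their groups, and that of 14 pan-neuronal genes was 8590 and 8740, the highest of their groups. Summed CPM of 10 oligodendrocyte lineage genes was 879 and 1090, also the highest of their groups. That sum can rest on 1 gene, since the highest single value in the list was 938.56 CPM and the highest sum 1100. It therefore does not show how most genes of the lineage stood in these libraries. Inhibitor vehicle 2 also had the largest share of counts on no gene, 47.43%, against 38.92% in the lowest library. The part of these other cell types in the results below was not tested, and in bulk RNA fewer microglia and less RNA per microglial cell cannot be told apart. Gene counts per library ranged from 19688231 to 39234799, so 1 count was worth 0.0255 to 0.0508 counts per 1000000.

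The label of the set was checked against other genes of the same cells. Csf1r, the receptor that keeps microglia alive, had a mean CPM (counts per 1000000 gene counts after scaling between libraries) of 43.7 ± 22.6 (SD, n = 4) in DMSO vehicle. Cx3cr1, the fractalkine receptor, had 11.3 ± 5.13 (SD, n = 4). These defining microglia genes were thus present, with a spread set largely by DMSO vehicle 1. Some border macrophage genes were present as well, with 7 of 14 passing the filter on low counts. Among these 7, Stab1 had a mean of 101 ± 51.9 CPM (SD, n = 4) and Ms4a7 11.7 ± 6.49 (SD, n = 4) in DMSO vehicle. Of 13 genes of blood monocytes and neutrophils, Ly6c2, Plac8 and S100a9 had 0 counts in every library and only 1 gene of the list passed the filter on low counts. Of 12 lymphocyte genes, Cd3e and Cd3g had 0 counts in every library, and the 1 that passed, Lck, had a mean CPM of 7.07 ± 2.7 (SD, n = 4).

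Of the 33 members, 28 passed the filter on low counts and were tested. The other 5 are receptors of resting microglia or of border macrophages. Siglech, a sialic acid binding lectin of microglia, had 1 count in 1 library, inhibitor acetate 4, and 0 in the other 14; 3 counts in a library would correspond to 0.076 to 0.152 CPM. P2ry12, the ADP receptor that guides microglial processes, had 0.339, 0.391, 0.232 and 0.421 CPM in DMSO vehicle and between 0 and 0.111 in DMSO acetate. Inhibitor vehicle 2 had 0.41 CPM of P2ry12, the highest of its group (0.174 and 0.265 in the others), whereas each of the 28 tested members was at its lowest of the group there (39% of all tested genes were). P2ry13, its relative, reached 0.416 CPM in inhibitor vehicle 3 and had 0 counts in all 4 inhibitor acetate libraries. Gpr34, a lysophosphatidylserine receptor, reached 0.459 and Cd163, the haemoglobin scavenger receptor of border macrophages, 0.163 CPM. P2ry12 and P2ry13 lie within Med12l and Gpr34 within Cask, both on the opposite strand, and no strand setting for the counting was given, which makes their few counts uncertain. Thus among classical markers of resting microglia in this culture, Tmem119 was measurable and P2ry12 and Siglech were near or at 0.

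Per kilobase of exon, Lyz2, the lysozyme of myeloid cells, had the highest level of the members in DMSO vehicle, 114 CPM per kb. Cd68, a lysosomal glycoprotein of phagocytes, followed with 89.5, C1qb with 86.5, Tyrobp with 79.1, C1qa with 77.3 and C1qc with 44.0. The remaining complement members stood lower, with C3 at 9.07, C3ar1 at 6.73 and Itgam at 1.21 CPM per kb. At the other end of the tested members stood Ptprc with 0.167 CPM per kb, Mrc1 with 0.245 and Selplg with 0.645. These levels use every annotated exon of a gene and are means that include DMSO vehicle 1.

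**Figure D2:**
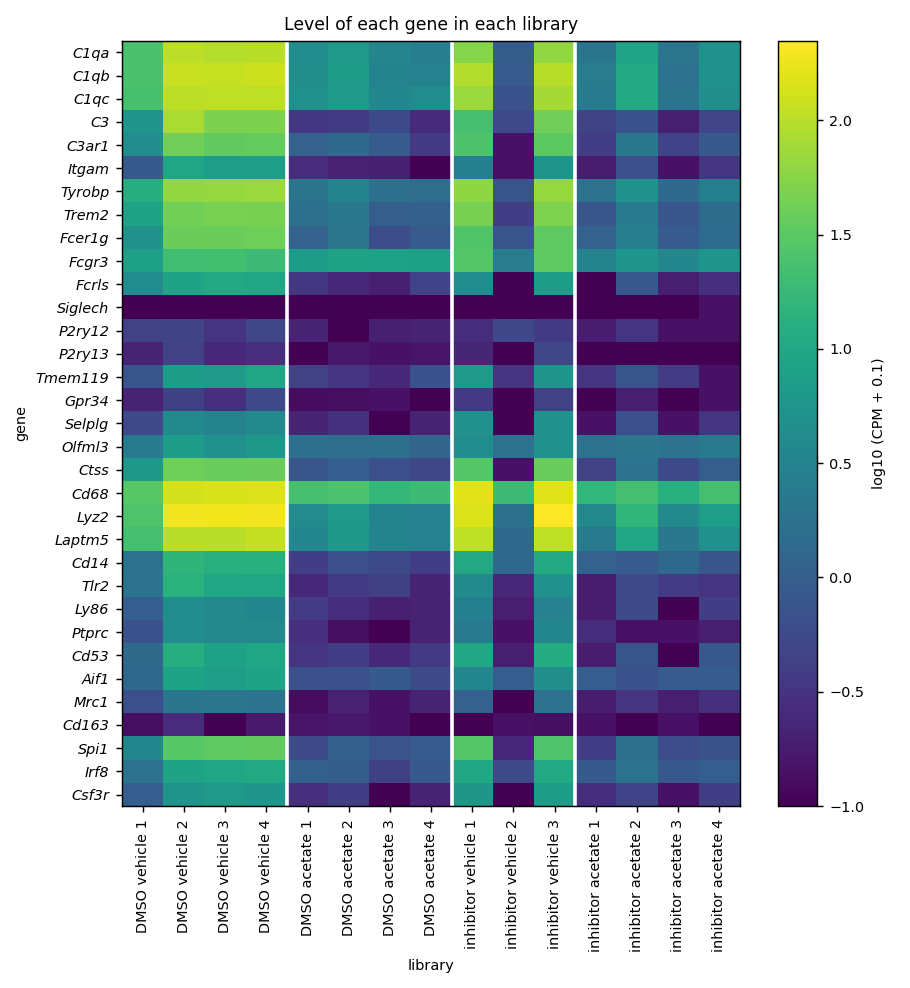
Level of each of the 33 members (rows) in each of the 15 libraries (columns, by group), as log10 of CPM plus 0.1. DMSO vehicle 1 is intermediate, inhibitor vehicle 2 resembles the acetate libraries, and among the 28 tested members Fcgr3 (45.4%), Olfml3 (28.6%) and Cd68 (18.7%) keep the largest shares of their DMSO vehicle mean in DMSO acetate.

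The first comparison asked what acetate did without the inhibitor. Of the 28 tested members 27 fell in DMSO acetate against DMSO vehicle and 0 rose, by edgeR's quasi-likelihood test at an adjusted p under 0.05. Over all 15075 tested genes, 27.5% fell and 23.7% rose. The filter on low counts used all libraries, and with only the 8 acetate libraries 17 members passed it. The other members were tested because of their vehicle levels, which favours a fall, so the count of falls is partly set by the filter. The median log2 fold change of the members was -4.65 and that of all tested genes -0.03, and the members ranged from -7.32 (C3) to -1.14 (Fcgr3). Expressed as the group mean left in DMSO acetate, the members kept a median of 3.87% of their DMSO vehicle level, from 0.62% (C3) to 45.4% (Fcgr3). In 27 of the 28, all except Fcgr3, every DMSO acetate library lay below every DMSO vehicle library, including DMSO vehicle 1. Such a separation was found in 23.3% of all tested genes. DMSO vehicle 1 lay below the other 3 libraries of its group in all 28 (36.8% of all genes), yet above all 8 acetate libraries in 24 of them (30.4%), the exceptions being Fcgr3, Tmem119, Selplg and Irf8. Without DMSO vehicle 1 and inhibitor vehicle 2, 29 members could be tested and all 29 fell (31.6% of all genes did), with a median of -4.92. Both libraries were left out for their low levels of these same genes, so this count is a description of the remaining libraries.

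The complement genes fell together. C1qa, C1qb and C1qc encode the 3 chains of C1q, the molecule that starts the classical pathway, and lie next to each other on chromosome 4 (C1qb at chr4:136880129-136886187, C1qc at chr4:136889804-136893065, C1qa at chr4:136895917-136898803, mm10). C1qb had 24.0, 116, 114 and 123 CPM in DMSO vehicle 1 to 4 and 4.47, 6.88, 3.09 and 2.81 in DMSO acetate 1 to 4. The groups did not overlap, and even the low vehicle library was above every acetate library. The log2 fold change was -4.42 ± 0.93 (SE, adjusted p = 0.00129). C1qa (-4.26 ± 0.85, SE) and C1qc (-4.18 ± 0.89, SE) fell by similar amounts. As shares of the 3 chains, C1qb made up 36.2%, 36.1% and 37.3% of the summed C1q counts in DMSO vehicle 2, 3 and 4 and 33.4%, 35.2%, 31.4% and 29.5% in DMSO acetate, where the sums were 176 to 566 counts. The C1qc share was 31.8% to 33.9% in DMSO vehicle 2 to 4 and 34.6%, 32.2%, 35.7% and 43.2% in the 4 DMSO acetate libraries. The C1qb share in inhibitor vehicle 1 and 3 was 42.4% and 40.8% and the C1qa share 25.3% and 26.4%, against 30.0% to 31.9% for C1qa in DMSO vehicle 2 to 4, a difference that was not tested.

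C3, the central component on which all complement pathways meet, moved most. It had 5.64, 83.7, 48.4 and 48.8 CPM in DMSO vehicle 1 to 4 and 0.25, 0.276, 0.468 and 0.162 in DMSO acetate. Every acetate library was under 1 CPM, and DMSO vehicle 2 was the highest library. The log2 fold change was -7.32 ± 1.14 (SE, adjusted p = 0.000182). C3ar1, the receptor of the C3a fragment, fell by 4.99 on the log2 scale, and Itgam, the alpha chain of complement receptor CR3, fell by 5.83, from 0.79, 9.06, 7.23 and 7.27 CPM in DMSO vehicle to between 0 and 0.166 in DMSO acetate.

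Tyrobp and Fcer1g are adaptor proteins that carry the signals of Trem2 and of Fc receptors. Tyrobp had 12.2, 63.5, 65.8 and 70.5 CPM in DMSO vehicle and 1.86, 3.08, 1.64 and 1.46 in DMSO acetate, a log2 fold change of -4.69 ± 0.91 (SE, adjusted p = 0.000782). Trem2, a lipid receptor whose human variants raise the risk of Alzheimer's disease, had 8.73, 43.0, 46.5 and 45.9 CPM and then 1.64, 2.11, 0.936 and 0.973. Both fell without any overlap of the groups. Trem2 had a log2 fold change of -4.62, Fcer1g of -4.77 and Fcrls, an Fc receptor-like gene of mouse microglia, of -5.22.

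Fcgr3, a low-affinity receptor of IgG, did not follow them. It had 7.64, 20.5, 21.7 and 19.5 CPM in DMSO vehicle and 7.05, 8.29, 8.24 and 7.95 in DMSO acetate. DMSO vehicle 1 lay within the range of the acetate libraries, and the other 3 vehicle libraries were above them all. The log2 fold change was -1.14 ± 0.52 (SE) and did not pass (adjusted p = 0.0774). Without DMSO vehicle 1 it was -1.40 and passed (adjusted p = 0.0287), and it also passed without inhibitor vehicle 2 (-1.14, adjusted p = 0.0019). With all libraries kept it passed with only the DMSO groups in the fit (-1.15, adjusted p = 0.00558) and with libraries scaled on pan-neuronal genes (-1.92, adjusted p = 0.00582), so the call depends on the libraries, the groups in the fit and the scaling.

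The surface receptors, lysosomal and sensing genes fell as well, to different extents. Tmem119, a membrane protein used as a marker of resident microglia, had 0.64, 6.81, 6.12 and 9.07 CPM in DMSO vehicle and 0.361, 0.242, 0.14 and 0.595 in DMSO acetate, where the highest acetate library came close to DMSO vehicle 1. Selplg, a ligand of selectins, fell by 4.55 on the log2 scale. Olfml3, a secreted glycoprotein, had 2.37, 7.01, 4.82 and 6.05 CPM and then 1.58, 1.49, 1.59 and 1.14. It fell least among the called members, with a log2 fold change of -1.80 ± 0.33 (SE, adjusted p = 0.000602).

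Lyz2 had 26.2, 196, 188 and 192 CPM in DMSO vehicle and 4.02, 6.36, 3.14 and 2.92 in DMSO acetate, a log2 fold change of -5.17 ± 1.02 (SE, adjusted p = 0.000864). Ctss, the lysosomal protease cathepsin S, had 5.98, 40.7, 36.9 and 38.5 CPM and then 0.693, 0.898, 0.562 and 0.432 (-5.50 ± 1.04, SE, adjusted p = 0.000645). Cd68 had 29.8, 133, 138 and 150 CPM and then 23.1, 25.1, 16.9 and 19.5. All 3 genes encode lysosomal proteins, but Cd68 fell by only 2.41 ± 0.54 (SE) on the log2 scale (adjusted p = 0.00198) and kept 18.7% of its mean level, where Ctss kept 2.12%. Laptm5, a lysosomal membrane protein of blood cells, fell by 4.40.

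Of the genes that sense bacteria, Cd14, the co-receptor of lipopolysaccharide, had 1.69, 15.3, 12.4 and 13.2 CPM in DMSO vehicle and 0.305, 0.553, 0.468 and 0.324 in DMSO acetate (-4.68 ± 0.72, SE, adjusted p = 0.000172). Tlr2, the receptor of bacterial lipoproteins, changed by -5.28 and Ly86, the partner of the Toll-like receptor relative Cd180, by -4.07 on the log2 scale. Ptprc (CD45) and Cd53, present on all leukocytes, changed by -4.97 and -4.98. Aif1, which encodes the actin-binding protein IBA1 used to stain microglia, had 1.24, 8.57, 7.37 and 8.61 CPM and then 0.555, 0.553, 0.796 and 0.486 (-3.43 ± 0.55, SE, adjusted p = 0.000226). The pan-leukocyte genes thus fell by more than Aif1 did, though that difference was not tested.

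The transcription factors were among the genes that fell. Spi1 had 3.57, 30.3, 32.5 and 33.4 CPM in DMSO vehicle and 0.499, 1.0, 0.609 and 0.811 in DMSO acetate (-5.10 ± 1.0, SE, adjusted p = 0.000864). Irf8 had 1.69, 8.47, 9.41 and 10.8 and then 0.998, 0.864, 0.328 and 0.757 (-3.32 ± 0.73, SE, adjusted p = 0.00178). Both factors were lower in each DMSO acetate library than in any DMSO vehicle library. Mrc1, the mannose receptor of border macrophages, fell by 4.42, from 1.56 ± 0.666 to 0.0716 ± 0.0404 CPM (SD, n = 4 each). Csf3r, the receptor of granulocyte colony stimulating factor, fell by 4.72.

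**Figure D3:**
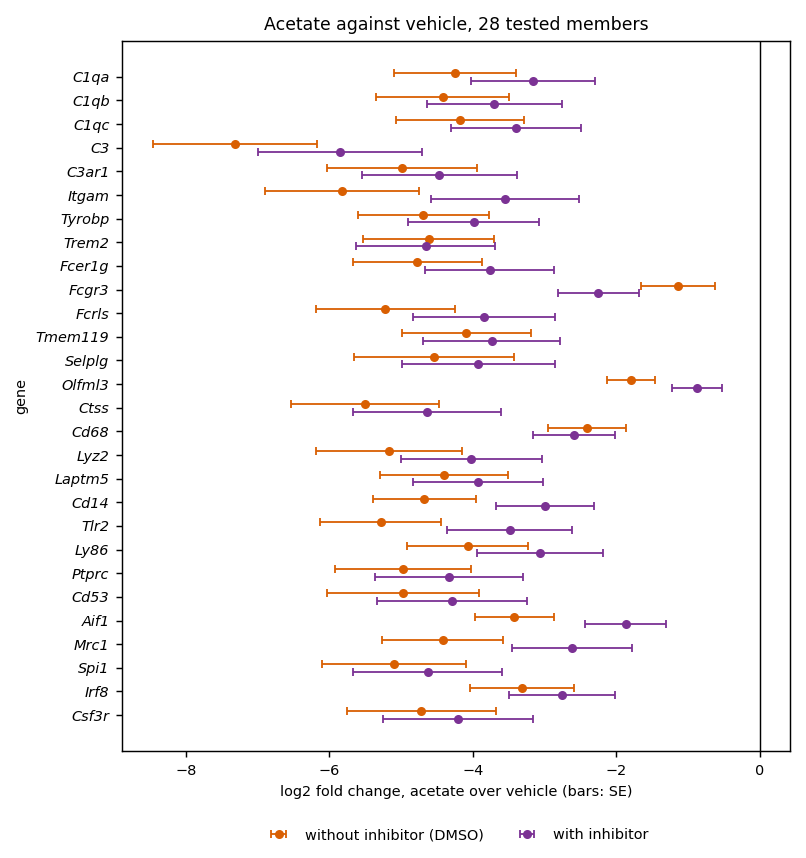
Log2 fold change of acetate over vehicle with its SE (x axis) for the 28 tested members (y axis), without and with the inhibitor. Every point lies below 0 in both comparisons; Fcgr3 without inhibitor (-1.14) and Olfml3 with inhibitor (-0.88) did not pass the test.

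The second comparison asked what acetate did when the inhibitor was present. Again 27 of the 28 tested members fell and 0 rose, where 20.6% of all tested genes fell and 14.5% rose. As in the first comparison, this count is partly set by the filter on low counts. The median log2 fold change was -3.75 (all genes -0.03), from -5.85 (C3) to -0.88 (Olfml3, adjusted p = 0.0648). Inhibitor vehicle 2 sets the reading of this comparison: in 0 of the 28 members did every inhibitor acetate library lie below every inhibitor vehicle library (16.4% of all genes did), and that vehicle library lay below all 8 acetate libraries in 12 of the members (21.1% of all genes). Set against the 5 vehicle libraries other than DMSO vehicle 1 and inhibitor vehicle 2, all 8 acetate libraries were lower in 28 of 28 members (20.7% of all genes). Those vehicle libraries were set aside for their low levels of these same genes. This separation was therefore largely fixed by that choice, and the counts below without either library are descriptions. The count of members that fell was 24 without inhibitor vehicle 1 (1877 of 15256 genes fell) and 20 without inhibitor vehicle 3 (1934 of 15230). It was 28 without inhibitor vehicle 2 (3616 of 15282). With only the 2 inhibitor groups in the fit it was 20 of the 25 that could then be tested (15.3% of all genes fell). Without both low libraries it was 28 of 29 (26.7% of all genes), with a median of -4.29, and P2ry12, which passed the filter on low counts in that setting, did not pass the test (-1.09, adjusted p = 0.217).

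C3 again moved most. C1qb had 91.5, 0.82 and 98.5 CPM in inhibitor vehicle 1 to 3 and 2.44, 10.2, 1.81 and 5.13 in inhibitor acetate 1 to 4 (-3.70 ± 0.94, SE, adjusted p = 0.00809). C3 had 22.9, 0.456 and 41.7 CPM and then 0.392, 0.597, 0.093 and 0.405 (-5.85 ± 1.14, SE, adjusted p = 0.00226). In both genes inhibitor vehicle 1 and 3 were far above the acetate libraries and inhibitor vehicle 2 was among or below them. Trem2 had 45.7, 0.319 and 49.4 CPM and then 0.696, 2.20, 0.695 and 1.44 (-4.66 ± 0.97, SE, adjusted p = 0.00305). Spi1 had 27.9, 0.137 and 26.9 CPM and then 0.305, 1.56, 0.51 and 0.585 (-4.63 ± 1.04, SE, adjusted p = 0.00441). For Trem2 and Spi1, inhibitor vehicle 2 was the lowest of the 7 libraries.

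Fcgr3 passed here, unlike without the inhibitor. It had 28.4, 2.42 and 32.5 CPM in inhibitor vehicle and 3.0, 5.65, 3.48 and 5.62 in inhibitor acetate (-2.25 ± 0.57, SE, adjusted p = 0.00788). Inhibitor vehicle 2 lay below all 4 acetate libraries in this gene. Cd68 had 157, 19.6 and 152 CPM and then 16.2, 22.1, 12.6 and 22.0 (-2.59 ± 0.57, SE, adjusted p = 0.00398), with inhibitor vehicle 2 inside the range of the acetate libraries. Olfml3 had 4.22, 1.69 and 4.92 CPM and then 1.74, 2.02, 1.81 and 2.30, which kept 54.5% of the mean. It passed without inhibitor vehicle 2 (-1.21, adjusted p = 0.00533) and without DMSO vehicle 1 (-0.88, adjusted p = 0.0229).

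By role, all 6 complement genes fell (median log2 fold change -3.63), as did all 5 tested adaptor and immune receptor genes (-3.85), all 4 lysosomal genes (-3.98) and all 3 sensing genes (-3.06). The smallest falls after Olfml3 were those of Aif1 (-1.87 ± 0.57, SE, adjusted p = 0.0201), Fcgr3, Cd68 and Mrc1 (-2.62 ± 0.83, SE, adjusted p = 0.0247). Aif1 did not pass without inhibitor vehicle 1 (adjusted p = 0.0651), inhibitor vehicle 3 (0.115) or inhibitor acetate 2 (0.0525). Mrc1 did not pass without inhibitor vehicle 1 (0.0696), inhibitor vehicle 3 (0.167), inhibitor acetate 1 (0.0627) or inhibitor acetate 3 (0.061).

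Among the acetate libraries, inhibitor acetate 2 stood highest. It was the highest of all 8 in 21 of the 28 tested members, where this held for 11% of all tested genes. The exceptions were Fcgr3, Olfml3, Cd68, Cd14, Ptprc, Cd53 and Aif1. Lyz2, for example, had 16.0 CPM in inhibitor acetate 2 and between 2.92 and 7.20 in the other acetate libraries.

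The third comparison asked whether the inhibitor changed the response to acetate. The difference of the log2 fold changes, with inhibitor minus without, passed in 0 of 28 members, by edgeR's quasi-likelihood test over all genes, with 0 members at an unadjusted p under 0.05. Over all tested genes 0.00663% were lower and 0.0133% higher. The median difference of the members was 0.75, against 0.00 over all genes, and 25 of the 28 were above 0. The SE of these differences ran from 0.48 to 1.94 with a median of 1.30, so a difference of the size of the median was within the error of most members. Fcgr3 had the lowest difference (-1.11 ± 0.76, SE, adjusted p = 0.435) and Itgam the highest (2.27 ± 1.65, SE, adjusted p = 0.467).

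Without DMSO vehicle 1 and inhibitor vehicle 2, the spread between libraries was smaller and 3 members passed. Fcgr3 fell further with the inhibitor (difference -1.39 ± 0.23, SE, adjusted p = 0.00535), and Cd14 (1.54 ± 0.31, SE, adjusted p = 0.0149) and Aif1 (1.48 ± 0.30, SE, adjusted p = 0.0172) fell less. In that fit 2.74% of all genes were lower and 1.56% higher, against 1 and 2 of 29 members. The 2 libraries were left out because of their levels of these same genes, so these p-values are a description of the other 13 libraries.

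**Figure D4:**
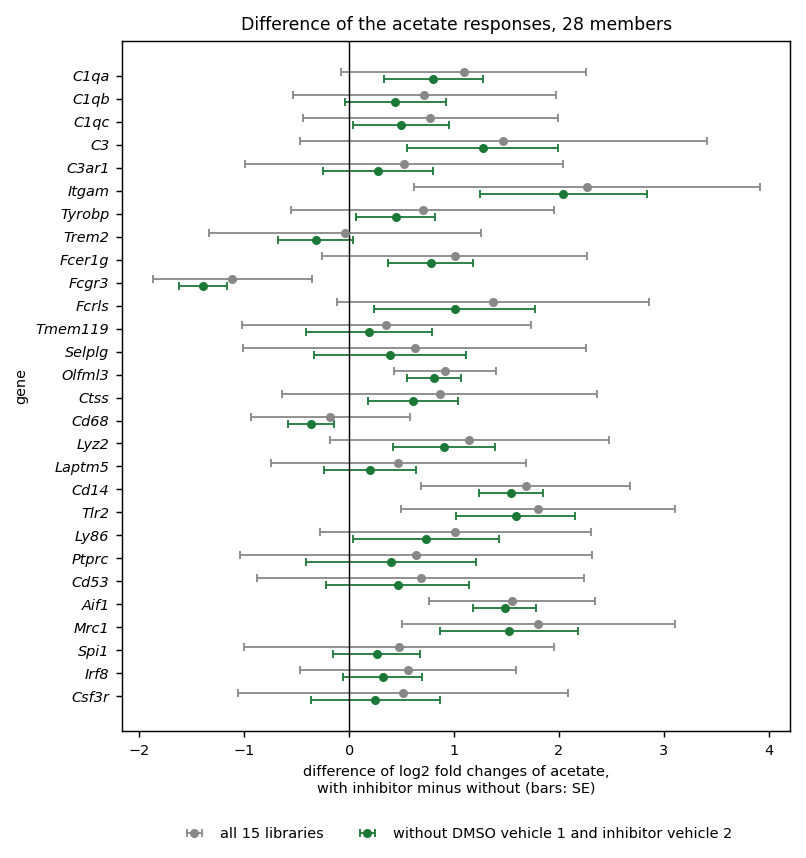
Difference of the acetate log2 fold changes, with inhibitor minus without (x axis, bars: SE), for 28 members (y axis), from all 15 libraries and without DMSO vehicle 1 and inhibitor vehicle 2. The SE shrinks without the 2 libraries while the values move little; Fcgr3 lies at -1.11 and -1.39, and Cd14 at 1.68 and 1.54.

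The last comparisons set inhibitor against DMSO at equal acetate, and they use the same libraries as the comparisons above. With vehicle, 0 of 28 members passed, where 1.99% of all genes were lower and 3.47% higher, and 1 member had an unadjusted p under 0.05. The median log2 fold change was -0.50, and values ran from -1.50 ± 0.71 (SE, adjusted p = 0.197) for Tlr2 to 0.29 ± 0.54 (SE, adjusted p = 0.781) for Fcgr3. Tlr2 had 1.81, 13.8, 9.08 and 9.07 CPM in DMSO vehicle and 3.91, 0.137 and 4.8 in inhibitor vehicle. Inhibitor vehicle 1 and 3 lay below DMSO vehicle 2, 3 and 4 in this gene. The same was found in 15 of the 28 members and in 18.8% of all genes. Fcgr3, Selplg and Cd68 lay the other way, with inhibitor vehicle 1 and 3 above (19.8% of all genes).

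Without the 2 libraries, 3 members passed as lower with the inhibitor: Tlr2 (-1.29 ± 0.24, SE, adjusted p = 0.00539), Aif1 (-1.05 ± 0.18, SE, adjusted p = 0.0035) and C3 (-0.90 ± 0.24, SE, adjusted p = 0.0347). In that fit 2.6% of all genes were lower. The libraries were left out for their levels of these same genes, so these p-values are a description of the remaining libraries. Aif1 had 3.35 and 4.54 CPM in inhibitor vehicle 1 and 3 and between 7.37 and 8.61 in DMSO vehicle 2 to 4. Only Aif1 also passed when DMSO vehicle 1 alone was left out (-1.47, adjusted p = 0.0332).

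With acetate, 0 of 28 members passed for the inhibitor, with 0 at an unadjusted p under 0.05, where 3.42% of all genes were lower and 2.36% higher. The median was 0.36, and it was -0.11 without inhibitor acetate 2, the library noted above. Cd14 had 1.05, 0.826, 1.25 and 0.675 CPM in inhibitor acetate and 0.305, 0.553, 0.468 and 0.324 in DMSO acetate. The groups did not overlap (1.19 ± 0.79, SE, adjusted p = 0.414), although these levels rest on 6 to 27 counts per library. Fcgr3 went the other way, with 3.0, 5.65, 3.48 and 5.62 CPM in inhibitor acetate against 7.05 to 8.29 in DMSO acetate, again without overlap (-0.83 ± 0.54, SE, adjusted p = 0.405).

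All inhibitor acetate libraries lay below all DMSO acetate libraries in Fcgr3 alone of the members (12.4% of all genes), and above them in Cd14 and Olfml3 (8.96% of all genes). With only these 8 libraries in the fit, so that the low vehicle libraries did not enter the estimate of the spread, Fcgr3 (-0.81, adjusted p = 0.00682) and Cd14 (1.21, adjusted p = 0.0101) passed among 17 members tested. In that fit 10.6% of all genes were lower and 8.58% higher. The same 2 genes passed without DMSO vehicle 1 and inhibitor vehicle 2, where 10.7% of all genes were lower and 6.89% higher.

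**Figure D5:**
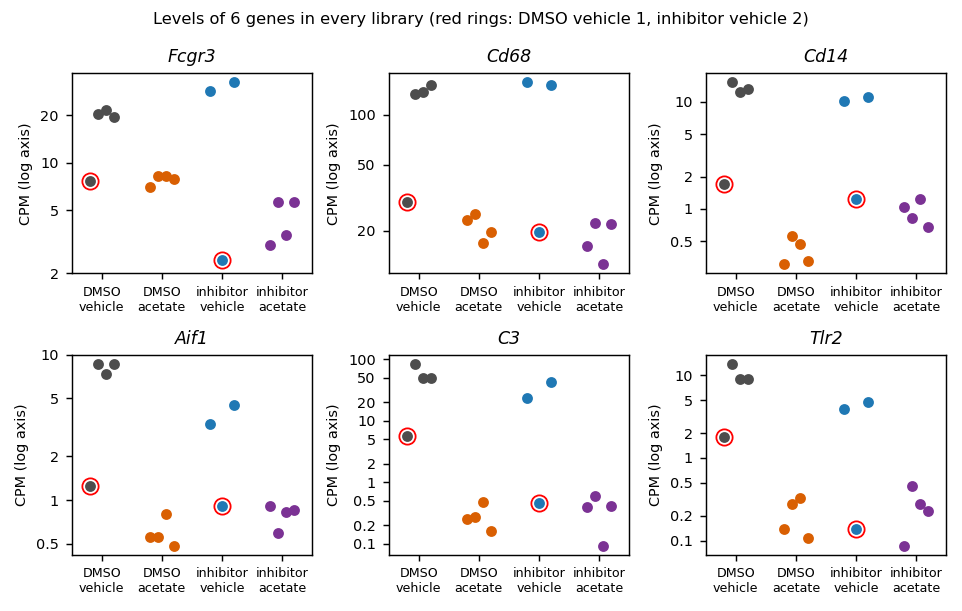
CPM (y axes, log scale) of Fcgr3, Cd68, Cd14, Aif1, C3 and Tlr2 in every library by group (x axes), with red rings on DMSO vehicle 1 and inhibitor vehicle 2. These genes were picked with their values known; Fcgr3 is lower in all inhibitor acetate libraries (3.0 to 5.65) than in all DMSO acetate libraries (7.05 to 8.29), and Cd14 is higher (0.675 to 1.25 against 0.305 to 0.553).

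To ask whether members moved by more or less than other microglia transcripts, the fit was repeated with the mean log2 CPM of 10 other microglia genes (among them Csf1r, Cx3cr1 and Itgb2, and none of them a member) as a covariate. At an equal level of those genes, 0 of 28 members were lower with acetate in DMSO and 2 were higher, where 8.63% of all genes were lower and 9.21% higher. The 2 were Fcgr3 (1.96 ± 0.30, SE, adjusted p = 0.000499) and Cd68 (0.93 ± 0.19, SE, adjusted p = 0.00322). With the inhibitor 0 passed in either direction (7.3% and 6.04% of all genes did), with 1 member at an unadjusted p under 0.05. Fcgr3 (-1.78 ± 0.25, SE, adjusted p = 0.00209) and Cd68 (-1.09 ± 0.16, SE, adjusted p = 0.00272) were also the members with a difference between the 2 responses, both lower with the inhibitor (4.82% of all genes, with 3.06% higher). Fcgr3 kept both calls in all other settings run for this fit, while Cd68 did not pass in DMSO without DMSO vehicle 1 (adjusted p = 0.06).

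In the same fit 8 members were higher with the inhibitor in vehicle: Cd53, Cd68, Csf3r, Fcgr3, Irf8, Lyz2, Selplg and Spi1 (9.82% of all genes were higher), and 0 were lower (8.92%). With acetate, Fcgr3 was lower (-0.90 ± 0.18, SE, adjusted p = 0.00365; 8.36% of all genes) and Cd14 higher (1.19 ± 0.38, SE, adjusted p = 0.0442; 5.34%). The covariate carries its own error and is fixed mostly by DMSO vehicle 1 and inhibitor vehicle 2 within the vehicle groups. Without DMSO vehicle 1 the members higher with acetate in DMSO numbered 10, and those higher with inhibitor in vehicle 16. Shares of all genes are not given for that setting, so these counts do not set the members apart. Cd14 did not pass with acetate when DMSO vehicle 3, inhibitor vehicle 1, inhibitor acetate 1 or 3, or any DMSO acetate library was left out.

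The makeup of the set differed as well, as shares of the summed member counts. Lyz2 took 15.37% to 19.77% of the members' counts in the 5 vehicle libraries other than DMSO vehicle 1 and inhibitor vehicle 2, and 5.56% to 14.73% in the 8 acetate libraries. Cd68 took 10.87% to 16.24% and then 20.41% to 38.31%, and 56.34% in inhibitor vehicle 2. Fcgr3 took 1.61% to 2.94% and then 5.21% to 16.12%. The 5 libraries and the acetate libraries did not overlap in any of these 3 shares, and the shares of one library are not independent of each other. With the other vehicle libraries this does not hold for all 3. Lyz2 took 11.74% in DMSO vehicle 1, inside the acetate range, and 4.44% in inhibitor vehicle 2. Fcgr3 took 3.42% and 6.93%, and Cd68 13.36% in DMSO vehicle 1. These 3 genes are examples, and the separation was not counted over all members or all genes. The shares of C3 and Ctss separated as well, and that of C1qa did not. The 5 libraries were picked by their levels of these same genes, so the separation is a description.

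Other genes of the same cells and pathways moved with the members. Of all tested genes, 27.5% fell and 23.7% rose with acetate in DMSO, and 20.6% fell and 14.5% rose with the inhibitor. The counts of each list below are to be read beside these shares. Some genes, such as Vav1 and Csf1, stand in more than 1 list, so the lists are not independent. Of 25 other microglia genes, 23 were tested; 22 fell with acetate in DMSO and 18 with the inhibitor, and 0 rose. Cx3cr1 went from 11.3 ± 5.13 to 0.149 ± 0.0696 CPM (SD, n = 4 each; log2 fold change -6.10 ± 0.86, SE, adjusted p = 8.87e-05) and Csf1r from 43.7 ± 22.6 to 1.77 ± 0.587 (-4.58 ± 0.81, SE, adjusted p = 0.00041). The gene that did not pass in DMSO was Sall1 (-0.36 ± 0.18, SE, adjusted p = 0.114), a transcription factor of microglia that other brain cells also express.

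Of 19 tested genes of the complement pathway that are not members, 13 fell and 1 rose in DMSO, and 11 fell and 0 rose with the inhibitor. C5ar1, the receptor of the C5a fragment, fell by 5.58 on the log2 scale in DMSO, and Clu, a secreted chaperone and complement inhibitor that astrocytes make in quantity, fell by 1.73. The gene that rose was Csmd2 (0.44 ± 0.12, SE, adjusted p = 0.0086). Downstream of Trem2, Tyrobp and Fc receptors, 17 of 18 tested genes fell in DMSO and 14 with the inhibitor. The kinase Syk changed by -3.12 and the lipase Plcg2 by -2.63 on the log2 scale in DMSO, and Lyn did not pass (0.11 ± 0.23, SE, adjusted p = 0.723).

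Of 16 tested genes that mark disease-associated microglia, 15 fell in DMSO and 14 with the inhibitor. Gpnmb, a membrane glycoprotein of this state, went from 284 ± 145 to 12 ± 2.8 CPM (SD, n = 4 each) and Spp1, osteopontin, from 66.6 ± 32.9 to 4.95 ± 1.05. Lpl did not pass in either comparison (0.12 and 0.22). Of 18 tested genes of the Toll-like receptor pathway, 13 fell in DMSO and 14 with the inhibitor, among them Cd180, which pairs with the member Ly86 (-6.57 ± 1.03 and -4.06 ± 0.96, SE). The adaptor Tirap fell as well, by less (-0.88 ± 0.15, SE, adjusted p = 0.000312, in DMSO and -1.07 ± 0.16, SE, adjusted p = 0.000538, with the inhibitor). The genes that did not pass in DMSO were Ly96, Ticam1, Tlr3, Tlr6 and Traf6.

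Of 15 tested cytokines and chemokines that microglia can make, 13 fell and 1 rose in DMSO, and 12 fell and 1 rose with the inhibitor. Tnf went from 11.5 ± 6.99 to 0.204 ± 0.119 CPM and Cxcl10 from 8.76 ± 4.24 to 0.473 ± 0.205 (SD, n = 4 each). The gene that rose in both was Il34, a ligand of Csf1r that neurons make. It went from 3.02 ± 0.684 to 5.11 ± 1.13 CPM in DMSO (0.76 ± 0.18, SE, adjusted p = 0.003) and from 5.93 ± 0.908 (SD, n = 3) to 13.2 ± 0.943 (SD, n = 4) with the inhibitor (1.16 ± 0.19, SE, adjusted p = 0.000915). It was also higher with the inhibitor than with DMSO, in vehicle (0.97 ± 0.19, SE, adjusted p = 0.0173) and in acetate (1.36 ± 0.18, SE, adjusted p = 0.00177). Csf1, the other ligand of the receptor, fell from 69.8 ± 4.31 to 24.0 ± 2.51 CPM in DMSO (-1.54 ± 0.18, SE, adjusted p = 3.17e-05) and from 45.0 ± 15.7 (SD, n = 3) to 22.6 ± 4.08 (SD, n = 4) with the inhibitor (-1.0 ± 0.19, SE, adjusted p = 0.00221). The 2 ligands of Csf1r thus moved in opposite directions while the receptor fell.

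Markers of other cells also moved with acetate. The shares of all genes given above (27.5% fell in DMSO and 20.6% with the inhibitor) hold for these lists too, and Pdgfra stands in 2 of them. Of 14 pan-neuronal genes 12 rose in DMSO and 11 with the inhibitor, with medians of 0.67 and 0.50. Of tested genes of meninges and fibroblasts 8 of 9 fell in DMSO and 7 with the inhibitor, with medians of -3.07 and -2.45. Astrocyte genes fell in 6 of 10 and 5 of 10, oligodendrocyte lineage genes in 7 of 9 and 5 of 9, and vessel genes in 4 of 7 in both, with 1 vessel gene that rose in DMSO. Border macrophage genes fell in 6 of 7 and 4 of 7, with Stab1 at -5.07 ± 0.89 (SE, adjusted p = 0.000403) in DMSO. The part of these cell types in the members' change was not tested. With libraries scaled on the pan-neuronal genes in place of the default, the median over all genes moved to -0.77 in DMSO and -0.56 with the inhibitor, and those of the members to -5.47 and -4.40, with 28 of 28 lower in both. Under that scaling 265 of all genes rose and 12147 fell in DMSO (3575 and 4139 by default), and 209 rose and 9753 fell with the inhibitor (2180 and 3103).

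Across the 7 vehicle libraries, the tested genes whose log2 CPM followed the mean of the 28 members most closely were Cybb (Pearson r = 0.9996), Cxcl16 (0.9993), Mpeg1 (0.9988), Clu (0.9987) and Vav1 (0.9987). They were followed by P2ry6, Bcl2a1b, Tlr13, Loxl2 and Ms4a7, of which Ms4a7 had 0.9981. These values describe the 7 libraries and rest on DMSO vehicle 1 and inhibitor vehicle 2, which hold most of the range. Mpeg1 had mean levels of 39.8 CPM in DMSO vehicle, 1.07 in DMSO acetate, 29.4 in inhibitor vehicle and 1.39 in inhibitor acetate, and Loxl2 38.4, 2.03, 28.5 and 2.17.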

How the data were processed

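RNA-seq libraries (15, in 4 groups by the labels) were read as whole-number counts per gene as deposited; the authors made them with STAR 2.5.2a, HTSeq 0.6.1p1 and DESeq2 on mm10, per the submitters' processing notes, which give no role or order. For the annotation, counting mode and strand, nothing is given in the sources used here. Counts on no gene (38.92% to 47.43% of each library) were left out. Genes passing edgeR's filterByExpr (15075 of 24498, holding 99.97% of counts) were fitted in 1 model with a term per group (edgeR 4.0.16, limma 3.58.1, R 4.3.3; TMM scaling with factors of 0.89 to 1.13, quasi-likelihood test, prior count 2, Benjamini-Hochberg adjustment over all genes, threshold 0.05). "CPM" means counts per 1000000 gene counts after TMM scaling; the biological coefficient of variation was 16.8%. The 5 comparisons share libraries. Alternatives were DESeq2 1.42.0, other scalings and filters, libraries left out, only the groups compared and a replicate block. Over the 21 pairs of libraries within groups, the chi-square per gene (at least 20 counts) was 4.65 to 143.76, and no pair looked like 1 library deposited again. On simulated counts for acetate in DMSO, over 15075 genes, the test recovered 46.8%, 80% and 98.5% of genes changed by 1.5, 2 and 4 fold, with 15 false calls. The simulation drew each gene independently and shifted no library in many genes at once, unlike DMSO vehicle 1 and inhibitor vehicle 2. The members had a median SE of 0.9 on the log2 scale in that comparison, so these rates do not carry over to them.

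The members and lists were chosen with earlier results of these data known. Named are all members, Csf1r, Cx3cr1, up to 4 genes per list with the smallest p for acetate in DMSO and the 10 genes most like the members; genes that went against their list (among them Sall1, Csmd2, Lyn, Lpl, Ly96, Ticam1, Tlr3, Tlr6 and Traf6), and the genes plotted singly, were chosen after their values were seen. Gene coordinates and exon lengths are from GENCODE vM21 on GRCm38, the assembly of mm10, and promoter sequences from RefSeq on GRCm38.p6. Values of some genes are not reported here.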

Additional observations from a re-analysis of the deposited data

Results flagged for a closer look

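In groups of 4, a library was picked out where its gap to the nearest of the others was over Dixon's 95% critical value for the group's range. This was run for 84 combinations of tested member and group, and 15 passed. Chance picks out about 1 in 20 groups, and the members are not independent of each other. In 14 of the 15 the library was DMSO vehicle 1, below the rest of its group. Its CPM was 24.1 for C1qa, 24.0 for C1qb, 23.9 for C1qc, 12.2 for Tyrobp, 8.73 for Trem2, 4.93 for Fcer1g and 7.64 for Fcgr3. It was 5.98 for Ctss, 29.8 for Cd68, 26.2 for Lyz2, 22.4 for Laptm5, 1.24 for Aif1, 0.564 for Mrc1 and 3.57 for Spi1. The remaining case was Irf8 in inhibitor acetate 2, the highest of its group at 1.74 CPM. Inhibitor vehicle has 3 libraries and could not be examined this way.

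With all libraries and no covariate, the difference between the acetate responses with and without the inhibitor passed in 0 of 28 members by edgeR, with an adjusted p of 0.288 for Aif1, 0.366 for Cd14, 0.435 for Fcgr3 and 0.925 for Cd68. It passed for a few members in other settings. At an equal level of other microglia genes it was -1.78 for Fcgr3 and -1.09 for Cd68, so 2 of 28 members were lower, where 4.82% of all genes were. Without DMSO vehicle 1 and inhibitor vehicle 2 it was -1.39 for Fcgr3, 1.48 for Aif1 and 1.54 for Cd14, so 1 of 29 members was lower and 2 were higher, where 2.74% and 1.56% of all genes were. These 2 libraries were left out for their levels of the same genes, so the last values are a description. Fcgr3 is the member found in both settings.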

How the results depend on the processing

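For the members that fell with acetate, leaving out 1 library at a time gave 27 to 29 in DMSO (medians of -4.99 to -4.43). With the inhibitor it gave 20 to 28 (-4.39 to -3.24), with 20 without inhibitor vehicle 3 (1934 of 15230 genes fell) and 24 without inhibitor vehicle 1 (1877 of 15256). For the difference of the responses these settings gave 0 and 0 members (medians 0.19 to 1.26). For inhibitor against DMSO they gave 0 to 1 lower with vehicle (Aif1, without DMSO vehicle 1; medians -1.01 to 0.01) and 0 with acetate (-0.11 to 0.50). In the settings run without the covariate, no direction of a called member reversed. Besides Aif1 and Mrc1, the members that did not pass with the inhibitor in some setting were C1qa, Itgam, Fcrls, Ly86 and Irf8 without inhibitor vehicle 3, Ly86 without inhibitor vehicle 1, and C1qa, C1qc, Fcrls and Ly86 with only the inhibitor groups fitted. Without DMSO vehicle 1 and inhibitor vehicle 2, the difference of the responses gave 1 lower and 2 higher, inhibitor with vehicle 3 lower, and inhibitor with acetate 1 lower and 1 higher. With only the groups compared, inhibitor with acetate gave 1 lower and 1 higher; this setting does not exist for the difference of the responses, which needs all 4 groups. The cause of these moves was not tested.

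At an equal level of other microglia genes, leaving out 1 library at a time gave, with acetate in DMSO, 0 to 2 lower and 2 to 10 higher, and with the inhibitor 0 to 5 lower and 0 to 7 higher. For the difference it gave 2 to 9 lower (9 without DMSO vehicle 1). For inhibitor with vehicle it gave 2 to 16 higher (2 without inhibitor vehicle 1, 14 without inhibitor vehicle 2), and with acetate 1 lower and 0 to 2 higher. The 7 higher came without DMSO vehicle 1 and the 5 lower without inhibitor vehicle 2. With only 3 of these microglia genes, Csf1r and Cx3cr1 among them, as the covariate, 5 were higher with acetate in DMSO, 2 with the inhibitor and 15 for inhibitor with vehicle. Shares of all genes are not given for these settings, so the counts do not set the members apart.

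The labels do not say whether replicate numbers pair the libraries. Same-numbered libraries had correlations of their deviations from the group means between -0.65 and 0.38. Both extremes came from the vehicle groups, whose means include DMSO vehicle 1 and inhibitor vehicle 2, so these values cannot decide whether libraries were paired. With the replicate block, 27 members fell with acetate in DMSO (3895 of 15075 genes fell) and 26 with the inhibitor (2616 of 15075). Mrc1 did not pass with the inhibitor (-2.67, adjusted p = 0.0515 by edgeR), and 0 members passed in the other comparisons. In the fit with the covariate, the block gave 4 higher with acetate in DMSO, 5 for inhibitor with vehicle and 0 for inhibitor with acetate. Shares of all genes are not given for that fit, so these 3 counts do not set the members apart. Over all genes and without the covariate, the block gave 234 higher and 282 lower for inhibitor with acetate (356 and 515 without it). With vehicle it gave 321 and 203 (523 and 300). DESeq2 called 260 higher and 680 lower for the difference of the responses, where edgeR called 2 and 1, and 0 members by either.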
